A study of Mus musculus with 6 samples.

Results

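The genes examined here are the protein-coding neighbours of *Itga3* on mouse chromosome 11. *Itga3* encodes the α3 subunit of the laminin-binding integrin α3β1. The members were all protein-coding rows of the deposited gene count table that start between 90000000 and 98000000 on chromosome 11 (genome build GRCm38), without *Itga3* itself and without *Col1a1*. This gave 104 genes of 16904 protein-coding genes and of 22295 rows in the table. *Itga3* starts at 95044474, so the segment reaches over 5 Mb to the side of lower coordinates and nearly 3 Mb to the side of higher coordinates. Start positions, and the distances taken from them, are the lower coordinate of a gene. For genes on the minus strand, *Itga3* among them, this is the 3′ end. The members include the *Hoxb* cluster and *Cacna1g*.

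RNA was sequenced from GFP-positive keratinocytes that were sorted by FACS from back skin, with 1 library for each of 3 WT mice (K19 *Itga3* WT) and 3 KO mice (K19 *Itga3* KO). All 6 mice, bred on FVB per the labels (FVB/N in the methods of the study), carried an inducible Cre driven by the K19 promoter, which is active in the hair bulge (HB), and the mTmG reporter, which turns cells and their progeny to GFP once Cre has acted. KO mice carried floxed *Itga3* alleles in addition (K19(Cre-ERT); mTmG; *Itga3* fl/fl). Per the labels, both groups received tamoxifen (10 mg/ml, 4 days) at the age of 6 weeks, 30 µg of the carcinogen DMBA in 200 µl acetone at 7 weeks, and then 12.34 µg of the tumor promoter TPA, repeated over 2 weeks; the methods of the study give another tamoxifen dose and age. Every KO mouse thus carried the floxed allele and whatever stretch of chromosome 11 is inherited with it. The strain of origin of that stretch is not given in the sources used here. Loss of *Itga3* and linked sequence cannot be told apart with these groups.

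Genes that lie side by side share a chromosome but often no regulation. The segment around *Itga3* is gene-dense from 94 Mb on and holds housekeeping genes, genes of nerve and muscle, and several homeobox genes. *Hoxb* genes encode homeodomain transcription factors that are laid out in the order in which they act along the body axis, and skin cells keep part of this positional pattern in adult life. *Cacna1g* encodes the pore-forming subunit of a low-voltage-activated, T-type calcium channel (Cav3.1), best known from neurons.

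Of the 104 members, 103 had a count in at least 1 library and could be tested, and 3 (2.91%) passed an adjusted p below 0.05 for KO against WT, a threshold that 0.673% of all tested genes passed. *Cacna1g* was higher in KO by 5.25-fold, *Scrn2* was higher by 1.92-fold, and *Rsad1* was lower, at 48.9% of the WT level. The other 100 tested members did not pass, among them every tested *Hoxb* gene. Over the segment as a whole the median log2 fold change was 0.01, with 52 members higher and 51 lower in KO.

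Of the 3 members past the threshold, *Rsad1* had an entry in the RefSeq promoter table. Its promoter is shown beside that of the next gene along the chromosome, *Acsf2*, whose change had the opposite sign. Each sequence runs 5′ to 3′ on the strand of the gene (minus for both), in build GRCm38.p6. It goes from 250 bases before the transcription start to 50 bases after it. In this paragraph, start means this 5′ start and not the lower coordinate. The *Rsad1* window is chr11:94549158-94549457 and the *Acsf2* window is chr11:94601737-94602036. Capitals mark matches, on either strand, to 5 motifs that were searched: the AP-1 site, also called the TPA response element (TGANTCA), a TEAD motif (CATTCC), the GC box (GGGCGG), the CCAAT box (CCAAT) and the TATA box (TATAAA).
Rsad1: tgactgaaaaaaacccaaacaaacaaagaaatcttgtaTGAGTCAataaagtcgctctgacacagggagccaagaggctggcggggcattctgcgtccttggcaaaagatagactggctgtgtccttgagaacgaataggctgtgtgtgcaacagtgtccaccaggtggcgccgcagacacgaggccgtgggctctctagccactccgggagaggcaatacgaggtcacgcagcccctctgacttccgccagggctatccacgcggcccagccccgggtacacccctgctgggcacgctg
Acsf2: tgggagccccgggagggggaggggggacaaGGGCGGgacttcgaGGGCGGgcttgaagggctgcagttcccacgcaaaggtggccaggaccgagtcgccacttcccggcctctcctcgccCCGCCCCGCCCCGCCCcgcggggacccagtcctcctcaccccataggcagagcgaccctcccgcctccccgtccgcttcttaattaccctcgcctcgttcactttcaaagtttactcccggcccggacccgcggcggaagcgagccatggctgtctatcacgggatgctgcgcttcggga
The *Rsad1* window holds 1 match to the AP-1 letters, TGAGTCA, which begins 212 bases before the start, and no match to the other 4 motifs. The *Acsf2* window holds 5 GC boxes, at 220, 206, 130, 125 and 120 bases before the start, of which the last 3 overlap by 1 base each, and none of the other 4 motifs. Promoter entries were found for 67 of the 104 members (82 entries), and TGANTCA was in 7 of these 82 (8.54%), against 7.81% of all 32851 promoters of the same length. The GC box was in 52.4% of the members' promoters and in 35.7% of all promoters, the CCAAT box in 34.1% and 37.4%, CATTCC in 18.3% and 14.7%, and TATAAA in 6.10% and 13.6%. A match describes letters in the window and is not evidence of binding.

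The WT libraries held 21167965 to 22851841 counts and the KO libraries 20578309 to 23670507. A floor of 3 counts per library was used, which equals 0.128 to 0.145 CPM (counts scaled to the library total). The names of the columns give the genotype and numbers that match no sample title, so letters were given to the libraries in table order (WT a to c, KO a to c). *Itga3* was measured at 371, 252 and 271 CPM in WT and at 131, 124 and 134 CPM in KO, a log2 fold change of −1.20 (SE 0.13, adjusted p = 0.00283, edgeR). Its level in every KO library was below that in every WT library, and counts of reads over the whole gene do not resolve the deleted part. Keratinocyte markers (*Krt5*, *Krt14*, *Krt15*, *Cd34*, *Lgr5* and *Itga6*) summed to 31127 to 48005 CPM in WT and 36435 to 42343 CPM in KO. This sum was carried mostly by *Krt5*, *Krt15* and *Krt14*. Of these keratinocyte markers *Cd34* passed the threshold, at 806 to 881 CPM in WT and 399 to 625 CPM in KO. In all, 5 of the 6 were lower in KO, among them *Lgr5* (log2 fold change −0.47) and *Krt15* (−0.21), while *Krt14* was higher (0.18). The 6 fibroblast markers summed to 54.9 to 76.8 CPM in WT and 21.6 to 41.2 CPM in KO, without overlap, with *Lum* at or under the floor in every library and none past the threshold. The fibroblast sum was carried mostly by *Col1a2*, at 53.1 to 72.9 CPM in WT and 15.3 to 34.9 CPM in KO, and so mostly gives the level of this gene. Of the 6 markers, 3 were lower in KO (*Col1a2*, *Pdgfra* and *Pdgfrb*), while *Dcn*, *Col3a1* and *Lum* were higher. *Dcn* was at 0.573 to 1.69 CPM in WT and 1.55 to 5.44 CPM in KO. *Col3a1* was at 0 in every WT library and at 0 to 1.40 CPM in KO. Immune, melanocyte, endothelial and Schwann cell markers had sums that overlapped between the groups, none above 21.5 CPM, with *Lyz2*, *Cdh5* and *Emcn* at or under the floor in every library. The part of these cells in the results below was not tested, and in such bulk samples fewer cells of a type and less RNA per cell cannot be told apart.

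Levels differed widely among the members. Per kilobase of exon, 42 members were above 10 CPM, 30 were between 1 and 10 and 32 were under 1, with a median of 7.82 CPM per kb against 3.85 for all tested protein-coding genes. At least 10 counts in every library were found for 80 members. At the other end, 11 members had 3 counts or fewer in every library, and *Hoxb1* had none in any library. *Rpl23*, a protein of the large ribosomal subunit, was by far the most abundant, at 564 ± 55.6 CPM per kb in WT and 507 in KO (SD, n = 3). It was followed by *Lrrc59* (61.8 in WT, 70.4 in KO), an endoplasmic reticulum protein, by *Kpnb1* (61.8 and 66.8), the nuclear import receptor importin β1, and by *Nfe2l1* (58.6 and 67.6), a transcription factor for proteasome genes. *Tob1*, *Ppp1r9b*, *Spop*, *Ube2z*, *Psmb3*, *Slc35b1*, *Mrpl10* and *Npepps* made up the rest of the 12 highest, between 26.1 and 54.2 CPM per kb, and none of the 12 passed the threshold. Many of these serve the synthesis, breakdown or transport of proteins: *Spop* is an adaptor of a cullin ubiquitin ligase, *Ube2z* a ubiquitin-conjugating enzyme, *Psmb3* a proteasome subunit and *Mrpl10* a protein of the mitochondrial ribosome.

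*Cacna1g* (ENSMUSG00000020866, chr11:94408391-94474198, minus strand) starts 636 kb from the start of *Itga3*, on the side of lower coordinates. It was counted 32, 40 and 35 times in the WT libraries and 204, 121 and 229 times in the KO libraries. This corresponds to 1.47, 1.83 and 1.54 CPM in WT and 8.67, 5.67 and 11.1 CPM in KO. The lowest KO library was thus above the highest WT library, and KO b was lower than the other two KO libraries. The mean was 1.61 ± 0.192 CPM in WT and 8.47 ± 2.71 CPM in KO (SD, n = 3), a log2 fold change of 2.39 (SE 0.26, 95% interval 1.81 to 2.96, edgeR adjusted p = 0.00282). Even in KO the gene stayed at a low level for its length, 0.836 CPM per kb against 0.159 in WT, below the median of the segment.

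*Rsad1* (ENSMUSG00000039096, chr11:94539798-94549255, minus strand), a member of the radical S-adenosylmethionine protein family, starts 505 kb from *Itga3* on the same side as *Cacna1g*. It was counted 459, 488 and 381 times in WT and 232, 209 and 202 times in KO, or 21.1, 22.4 and 16.8 CPM in WT and 9.86, 9.80 and 9.77 CPM in KO. The groups did not overlap, and the KO libraries lay much closer together than the WT libraries. For counts of 202 to 232, counting error alone is wider than this KO spread, so the KO SD understates the uncertainty of the level. The level fell from 20.1 ± 2.91 CPM in WT to 9.81 ± 0.0466 CPM in KO (SD, n = 3), a log2 fold change of −1.03 (SE 0.14, 95% interval −1.34 to −0.72, edgeR adjusted p = 0.0093).

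*Scrn2* (ENSMUSG00000020877, chr11:97029938-97033958, plus strand), which encodes a protein of the secernin family, starts 1.99 Mb from *Itga3* on the side of higher coordinates. It was counted 117, 98 and 118 times in WT and 240, 184 and 210 times in KO, or 5.37, 4.49 and 5.20 CPM in WT and 10.2, 8.63 and 10.2 CPM in KO. Here too each KO library was above each WT library. The level rose from 5.02 ± 0.468 to 9.66 ± 0.895 CPM (SD, n = 3), a log2 fold change of 0.94 (SE 0.16, 95% interval 0.58 to 1.30, edgeR adjusted p = 0.0296).

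For each of these 3 genes the exact two-sided permutation test gave p = 0.1, the smallest p that 3 against 3 libraries allow. The adjusted p depended on single libraries: with WT c left out no member passed (*Cacna1g* 0.204, *Rsad1* 0.0908, *Scrn2* 0.316), with KO a left out none passed (0.0760, 0.136 and 0.250), and with KO c left out *Rsad1* (0.0569) and *Scrn2* (0.147) did not, while the log2 fold changes stayed between 2.15 and 2.62, −1.15 and −0.95, and 0.87 and 1.03. By limma-voom, *Cacna1g* passed and *Rsad1* (adjusted p = 0.0534) and *Scrn2* (adjusted p = 0.0929) did not.

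The genes on each side of these 3 did not pass the threshold. *Abcc3*, an ATP-driven exporter of organic anions, lies on the lower side of *Cacna1g* and was measured at 65.6, 104 and 87.2 CPM in WT and 42.8, 63.6 and 54.0 CPM in KO. Its groups did not overlap, with a log2 fold change of −0.68, opposite in sign to *Cacna1g* (SE 0.17, edgeR adjusted p = 0.105). *Spata20*, on the other side, was under 0.5 CPM in every library (log2 fold change −0.26, SE 0.64).

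*Rsad1* lies between *Mycbpap* and *Acsf2*. *Acsf2*, a mitochondrial acyl-CoA synthetase, was at 55.0, 68.1 and 59.3 CPM in WT and at 69.2, 85.7 and 96.9 CPM in KO, again without overlap, and its log2 fold change was 0.46 (SE 0.13, edgeR adjusted p = 0.141). *Mycbpap* was near 1 CPM or lower in every library, with a log2 fold change of −0.38 (SE 0.36). *Scrn2* lies between *Sp6* and *Lrrc46*. *Sp6* (epiprofin), a zinc-finger transcription factor of hair follicles and teeth, was at 4.08, 4.21 and 6.30 CPM in WT and at 12.4, 7.41 and 6.14 CPM in KO, so that the groups overlapped (log2 fold change 0.83, SE 0.27, edgeR adjusted p = 0.224, and 0.48 without KO a). *Lrrc46* was at 0.275 to 1.05 CPM in WT and 0.595 to 0.891 CPM in KO.

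**Figure D1:**
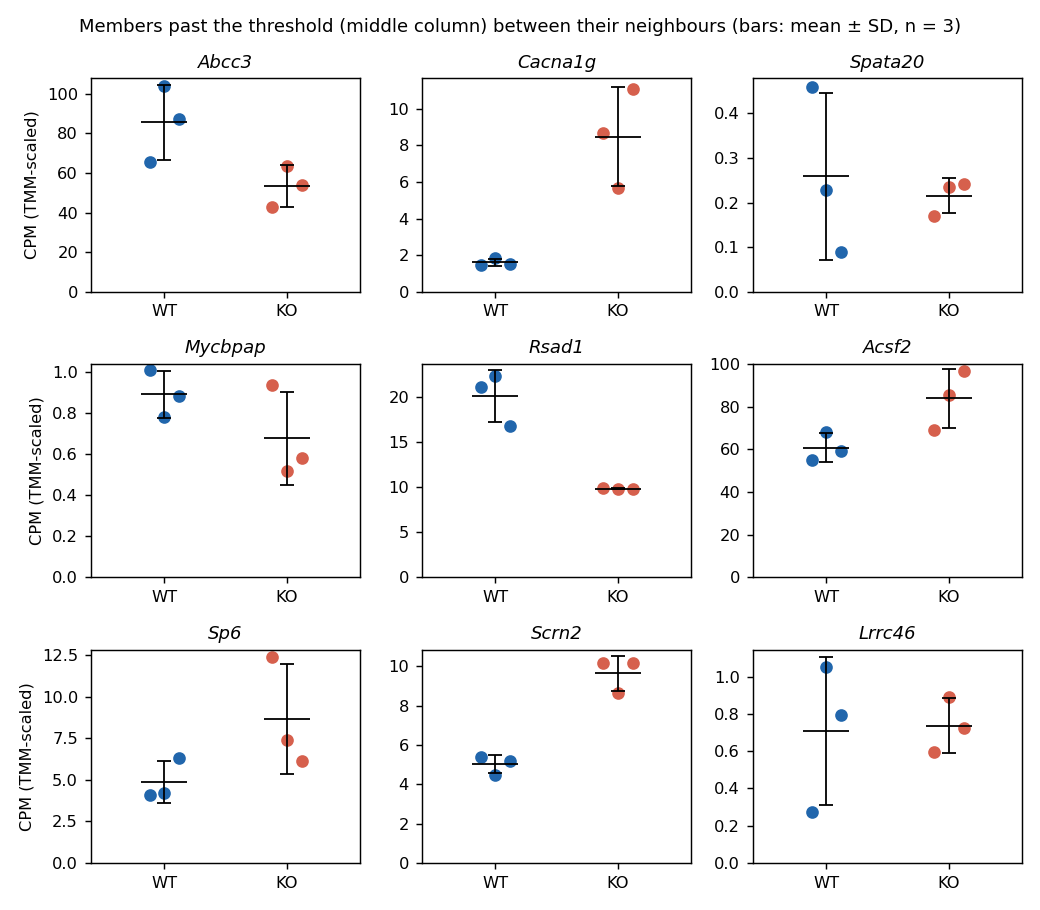
Level (TMM-scaled CPM, linear axes from 0) of *Cacna1g*, *Rsad1* and *Scrn2*, in the middle column, and of the genes on each side of them, in the 3 WT and 3 KO libraries. Points are libraries and bars are the mean ± SD (n = 3); the groups do not overlap for the middle column, *Abcc3* and *Acsf2*, while *Sp6* and the other neighbours overlap.

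Of the members that start within 0.5 Mb of *Itga3*, 21 were tested and none passed the threshold. The threshold was passed by 0.673% of all tested genes and by 1.65% of tested protein-coding genes of chromosome 11 outside the segment. At such shares, no call among 21 genes says little. By start position *Rsad1*, at 505 kb, lies just beyond this distance, and *Cacna1g* lies at 636 kb. Among the 21, 10 were higher and 11 lower in KO, with a median log2 fold change of −0.02. The nearest by start position, *Pdk2*, a kinase that restrains pyruvate dehydrogenase, starts 18.2 kb away and was at 57.5, 66.0 and 53.7 CPM in WT and 45.6, 68.9 and 56.9 CPM in KO (log2 fold change −0.05, SE 0.14). *Samd14* had a log2 fold change of 0.41 (SE 0.16) and *Ppp1r9b*, the protein phosphatase scaffold spinophilin, one of 0.27 (SE 0.11). Their edgeR adjusted p-values were 0.349 and 0.383.

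On the other side of *Itga3* lies a pair of distal-less homeobox genes. *Dlx3*, a transcription factor of epidermal and hair differentiation, starts 75.6 kb away and was at 27.3, 23.7 and 17.5 CPM in WT and at 30.9, 32.4 and 31.0 CPM in KO. The groups did not overlap, the WT libraries were spread more widely, and the log2 fold change of 0.46 did not pass (SE 0.15, edgeR adjusted p = 0.223). Its neighbour *Dlx4* was at 2.06 to 2.47 CPM in WT and 1.87 to 2.37 CPM in KO, with a log2 fold change of −0.02 (SE 0.24), whose sign turned when WT c or KO a was left out. Further out, the log2 fold changes were 0.08 for *Kat7*, a histone acetyltransferase, 0.09 for *Fam117a*, 0.36 for *Slc35b1*, a nucleotide transporter of the endoplasmic reticulum, −0.07 for *Spop* and −0.27 for *Nxph3*, a neurexophilin.

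*Ngfr*, the p75 neurotrophin receptor, was at 31.4, 11.2 and 30.3 CPM in WT and at 29.7, 24.6 and 27.8 CPM in KO. WT b stood apart as the lowest library, and without it the log2 fold change went from 0.17 to −0.17. *Phb*, the mitochondrial chaperone prohibitin, had a log2 fold change of 0.09 (SE 0.13), whose sign also turned without WT b or without KO a. On the lower side, *Xylt2*, which starts glycosaminoglycan chains on proteoglycans, was at −0.15, *Mrpl27* of the mitochondrial ribosome at −0.09, and *Eme1*, a subunit of a DNA-repair endonuclease, at −0.04 on the log2 scale. *Eme1* was at 2.39, 6.69 and 7.36 CPM in WT, a wider range than in KO (4.34, 4.92 and 6.72 CPM), and its sign turned under 5 of the 13 alternatives to the main fit. *Hils1*, *Sgca*, *Cdc34-ps* and *Tmem92*, also among the nearest, were at or under the floor in each library, and *Tac4*, a tachykinin precursor, was so in WT and at 0.170 to 0.469 CPM in KO.

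**Figure D2:**
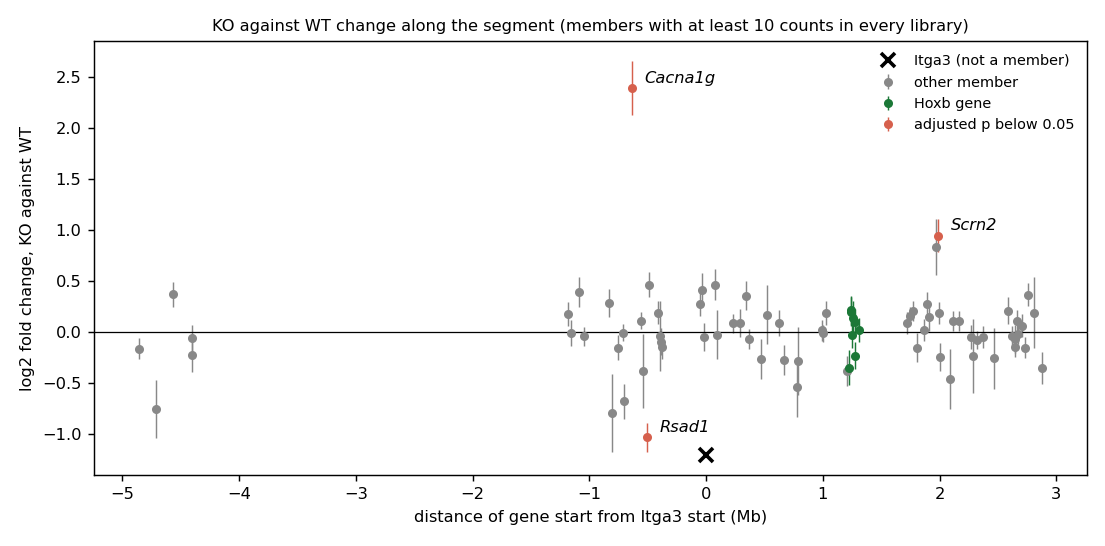
Log2 fold change (KO against WT, y axis) of the 80 members with at least 10 counts in every library against the distance of their start from the start of *Itga3* (Mb, x axis), with bars of 1 SE; *Hoxb* genes in green, members past the threshold in red, and *Itga3* (−1.20) as a cross. *Cacna1g* (2.39) stands above and *Rsad1* (−1.03) below the others, and the *Hoxb* genes lie between −0.35 and 0.21. In the bin with the largest share, 0.5 to 1 Mb on the side of lower coordinates, 4 of 9 points lie beyond ±0.6. For all 80 points, these 4 included, the share is 8.75%. Among the 4, *Wfikkn2* had only 11 to 40 counts per library.

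The *Hoxb* cluster was expressed and its levels did not pass the threshold in any gene. Of its genes, 9 were in the table: *Hoxb1* had no count in any library, and the other 8 were above 10 counts in every library. From *Hoxb9* at the lower coordinate to *Hoxb2*, the WT means per length were 21.4 (*Hoxb9*), 13.4 (*Hoxb8*), 13.6 (*Hoxb7*), 18.5 (*Hoxb6*), 3.64 (*Hoxb5*), 6.75 (*Hoxb4*), 9.78 (*Hoxb3*) and 6.95 CPM per kb (*Hoxb2*). The 4 genes from *Hoxb9* to *Hoxb6* were thus each above the 4 genes from *Hoxb5* to *Hoxb2*. In KO the means in the same order were 16.8, 15.3, 15.7, 18.1, 4.01, 5.75, 10.4 and 7.05 CPM per kb.

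For KO against WT, 5 *Hoxb* genes were higher and 3 lower, with a median log2 fold change of 0.06 and values from −0.35 to 0.21. The groups overlapped for each of the 8 genes, and the smallest edgeR adjusted p was 0.461. The threshold was passed by 0.673% of all tested genes. Groups did not overlap for 16.3% of all tested genes and 18.8% of protein-coding genes. At such shares, none among 8 genes says little. *Hoxb9*, a posterior member of the cluster, was at 59.0, 51.9 and 54.1 CPM in WT and at 55.2, 43.3 and 31.0 CPM in KO, a log2 fold change of −0.35 (SE 0.17, 95% interval −0.72 to 0.02). At the other end of the range, *Hoxb7* was at 22.7, 17.1 and 23.0 CPM in WT and 25.9, 24.7 and 22.1 CPM in KO, a log2 fold change of 0.21 (SE 0.14). These values depended on single libraries: *Hoxb9* was at −0.16 without KO c and −0.57 without KO a, and *Hoxb7* was at 0.0847 without WT b. The values of *Hoxb2*, *Hoxb3* and *Hoxb6*, at 0.02, 0.09 and −0.03, changed sign when 1 library was left out.

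*Gm53*, a predicted gene annotated as protein-coding that lies on the outer side of *Hoxb9*, was at 53.3, 52.6 and 44.7 CPM in WT and at 44.0, 42.4 and 29.3 CPM in KO. Its groups did not overlap, narrowly, and its log2 fold change was −0.38 (SE 0.15, edgeR adjusted p = 0.335). KO c was the lowest of all libraries for *Gm53*, *Hoxb9* and *Hoxb6*. For *Hoxb8* and *Hoxb7* it was the lowest KO library, with WT b lower still. From *Hoxb5* to *Hoxb2* the lowest KO library was KO a. In the other *Hox* clusters, on other chromosomes, 23 genes were tested and none passed, against 0.673% of all tested genes. Their median log2 fold change was −0.08.

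**Figure D3:**
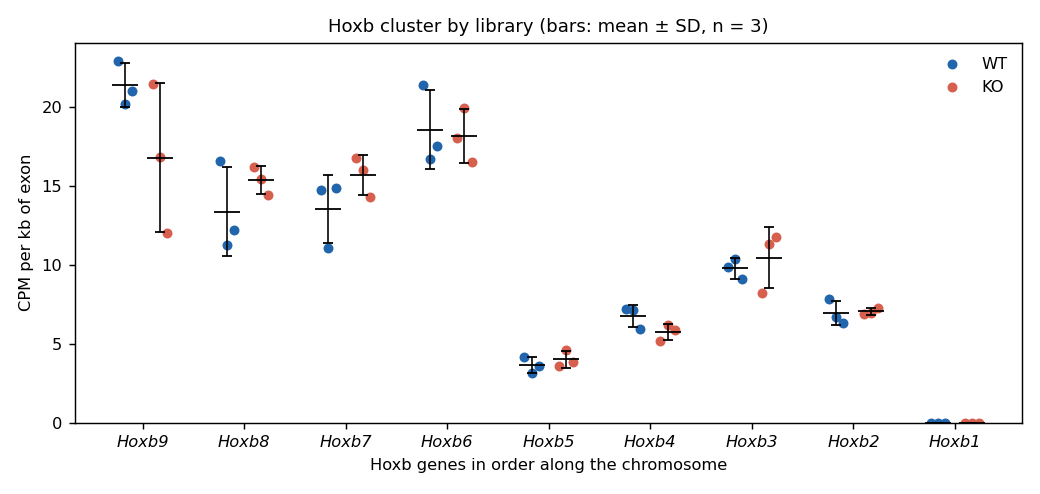
Level of the *Hoxb* genes (CPM per kb of exon, linear axis from 0) in order along the chromosome, for WT (blue) and KO (red); points are libraries, bars the mean ± SD (n = 3). The means of *Hoxb9* to *Hoxb6* lie above those of *Hoxb5* to *Hoxb2*, while single libraries of *Hoxb3* reach above the lowest of *Hoxb8* and *Hoxb7*. *Hoxb1* is at 0, and WT and KO libraries overlap for every gene.

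*Cacna1g* was also set beside the other voltage-gated calcium channel genes, wherever they lie in the genome. Of 17 such genes, all tested, *Cacna1g*, around which the list was set, alone passed. The threshold was passed by 0.673% of all tested genes, so the lack of another call in a list of this size says little. Groups did not overlap for 2 of the 17, against 16.3% of all tested genes. In KO 7 were higher and 10 lower, and the median log2 fold change was −0.02. *Cacna1h* and *Cacna1i*, which encode the other T-type channels, were at 0.0918 to 1.11 CPM and 0 to 0.0882 CPM. *Cacnb2*, an auxiliary β subunit, had groups that did not overlap in the opposite direction, with 9.22, 7.60 and 10.1 CPM in WT and 2.51, 6.28 and 3.43 CPM in KO (log2 fold change −1.14, SE 0.28, edgeR adjusted p = 0.106). The highest per length, *Cacnb3*, was at 21.3 CPM per kb in WT and 21.0 in KO.

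The members were further grouped by function. As 0.673% of all tested genes passed the threshold, a count of 0 or 1 in groups of this size says little. Among 22 tested transcription and chromatin regulators of the segment, none passed, 13 were higher and 9 lower, and the median log2 fold change was 0.05. Besides the homeobox genes these include *Nfe2l1*, at 316, 318 and 323 CPM in WT and 413, 337 and 353 CPM in KO, without overlap (log2 fold change 0.21, SE 0.10), and *Hlf*, a circadian output factor, at 6.64 to 16.9 CPM in WT and 5.48 to 8.16 CPM in KO, with overlap (log2 fold change −0.75, SE 0.28, edgeR adjusted p = 0.316, and −0.36 without WT a). The heterochromatin protein gene *Cbx1* had no overlap either, at 77.2 to 81.6 CPM in WT and 83.1 to 92.2 CPM in KO, with a log2 fold change of 0.16. Among 12 mitochondrial and ribosomal genes none passed, 6 were higher and 6 lower, and the median was 0.02.

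Among 20 genes of signalling, adhesion and transport, *Cacna1g* passed, 8 were higher and 12 lower, and the median log2 fold change was −0.04. *Lasp1*, an actin-binding protein of focal adhesions, was at 92.8, 103 and 101 CPM in WT and at 130, 107 and 145 CPM in KO. Its groups did not overlap, and its log2 fold change was 0.36 (SE 0.11, edgeR adjusted p = 0.200). *Igf2bp1*, an RNA-binding protein of fetal tissues, was at or under the floor in each library.

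At the far lower end of the segment, *Tmem100*, a membrane protein known from endothelium, was at 2.25, 1.05 and 2.16 CPM in WT and at 0.298, 0.938 and 0.871 CPM in KO. The groups did not overlap, with a log2 fold change of −1.38 that did not pass (SE 0.44, edgeR adjusted p = 0.206). The next gene, *Mmd*, was at 35.4, 39.6 and 40.5 CPM in WT and 35.2, 33.3 and 34.6 CPM in KO (log2 fold change −0.16, SE 0.10), and 21.5% of its exon length is shared with another gene on the same strand. Just outside the segment, *Pctp* (−0.46) and *Ankfn1* (−2.11, with a mean of 0.350 CPM in WT and 0.0772 CPM in KO) lie beyond *Tmem100*, and *Cacnb1* (−0.22) lies beyond *Arl5c* (−0.24), none past the threshold. The bounds of the segment are round numbers and do not follow the data.

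Counted against other genes, the share of 2.91% stands beside 146 of 21681 tested genes (0.673%), and the same threshold was passed by 0.811% of tested protein-coding genes and by 1.65% of tested protein-coding genes of chromosome 11 outside the segment (21 of 1272). With 3 genes the share is imprecise, and no test of it was made. Higher calls were 1.94% of members against 0.461% of all tested genes, and lower calls 0.971% against 0.212%. Against all tested protein-coding genes the shares to compare are 0.577% and 0.234%, and against chromosome 11 outside the segment 0.943% and 0.708%. At an adjusted p below 0.1 the count of members stayed at 3, against 1.66% of all tested genes. The limits of the heat map of the study also require a log2 fold change beyond ±0.6 and an average level over 4 on the log2 CPM scale. The study took its levels from limma's voom, whereas here the limits were set on the edgeR fit. In this fit they were met by 0.434% of all tested genes and by 0 members. The mean log2 CPM was 2.36 for *Cacna1g*, 3.91 for *Rsad1* and 2.89 for *Scrn2*.

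In windows of 8 Mb along the chromosome, the window from 98 to 106 Mb, which holds a keratin gene cluster, had 7 calls among 198 genes (3.54%), and the window from 82 to 90 Mb had 3 among 100 (3.00%). The window at the end of the chromosome, which begins at 114 Mb, had 5 among 184 (2.72%), so that only the windows from 98 to 106 Mb and from 82 to 90 Mb had a higher share than the segment around *Itga3*. Windows nearer to the start of the chromosome had 0 to 3 calls each. Within the segment, the calls lay at 94 to 96 Mb (2 of 41 genes) and at 96 to 98 Mb (1 of 51), and none among the 11 genes from 90 to 94 Mb.

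**Figure D4:**
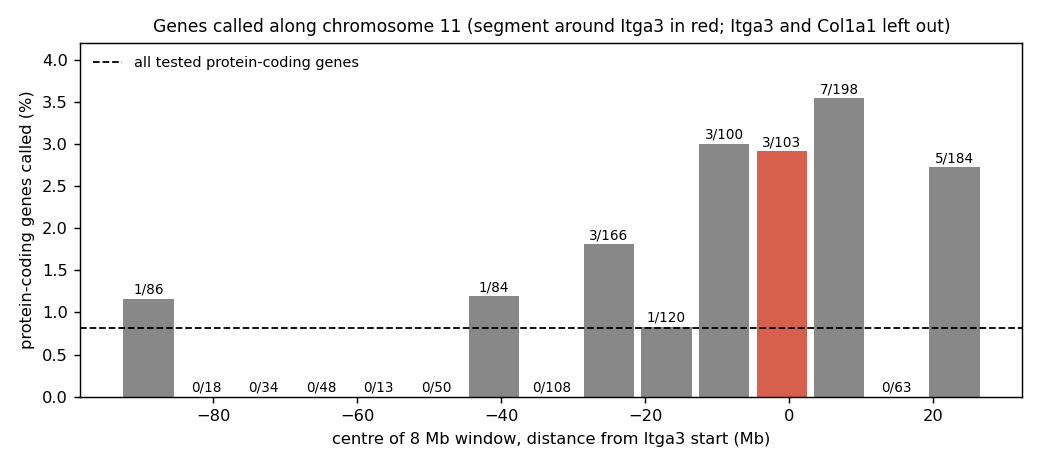
Share of tested protein-coding genes past the adjusted p threshold (%, y axis) in windows of 8 Mb along chromosome 11, by the distance of the window's centre from the start of *Itga3* (Mb, x axis), with the numbers called and tested on each bar. The window around *Itga3* (red, 3 of 103) is below the next one towards higher coordinates (7 of 198) and above the dashed line for all tested protein-coding genes (0.811%).

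Looser measures were also counted. An unadjusted p below 0.05 was found for 19 members (18.4%), against 11.5% of all tested genes, 13.9% of protein-coding genes and 18.6% of those of chromosome 11 outside the segment. The groups did not overlap for 20 members (19.4%), against 16.3% of all tested genes, 18.8% of protein-coding genes and 23.3% of chromosome 11 outside the segment. Of these 20, 15 were higher and 5 lower in KO (14.6% and 4.85% of members), against 8.03% and 8.23% of all tested genes, 9.63% and 9.18% of protein-coding genes and 13.2% and 10.1% of chromosome 11 outside the segment. Besides the genes described above, the higher ones included *Stxbp4*, *Nme1*, *Epn3*, *Lrrc59* and *Mrpl10*, with log2 fold changes from 0.11 (*Epn3*) to 0.39 (*Nme1*). *Nme2*, also among them, was at 0.321 to 0.725 CPM and shares 48.9% of its exon length with another gene on the same strand, so that its count is uncertain. *Nme1* shares 12.5% of its exon length with that same gene.

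The size of change was then set beside the distance from *Itga3*. Over the 80 members with at least 10 counts in every library, the median absolute log2 fold change was 0.17, against 0.14 for all tested genes and 0.15 for chromosome 11 outside the segment with the same count minimum. Across these members, which share libraries and are not replicates, the absolute log2 fold change had a Spearman correlation of −0.05 with distance and of −0.34 with mean CPM. By distance, the median absolute log2 fold change of these members was 0.15 within 0.5 Mb (n = 15), 0.28 at 0.5 to 1 Mb (n = 15), 0.17 at 1 to 2 Mb (n = 25) and 0.16 beyond 2 Mb (n = 25). An absolute value above 0.6 was reached by 0%, 26.7%, 8% and 4% of them. For all 80 members the share was 8.75%. With the same count minimum it was 6.94% for all tested genes and 8.62% for chromosome 11 outside the segment. The 4 members above 0.6 at 0.5 to 1 Mb all lay on the side of lower coordinates, where they were 4 of 9. They are *Cacna1g*, *Rsad1*, *Abcc3* and *Wfikkn2*, the last with only 11 to 40 counts per library (edgeR adjusted p = 0.464). Over all tested members, the median signed log2 fold change was −0.15 for members 0.5 to 1 Mb away, 0.14 for those 1 to 2 Mb away, where 21 of 30 tested members were higher in KO, and −0.05 beyond 2 Mb. Of the 77 members with at least 10 counts in every library that did not pass, 68 had a 95% interval within −1 and 1 on the log2 scale. The intervals of the other 9 reached beyond these bounds, among them *Abcc3* (−1.05 to −0.31), *Sp6* (0.24 to 1.42) and *Hlf* (−1.38 to −0.13).

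*Col1a1*, the collagen gene left out of the members, lies 108 kb from *Itga3*. It was at 123, 40.4 and 92.9 CPM in WT and at 26.9, 46.2 and 39.3 CPM in KO, with overlap between WT b and KO b (log2 fold change −1.19, SE 0.32, edgeR adjusted p = 0.127). Like *Col1a2*, it is a main product of fibroblasts. Of the 6 fibroblast markers, *Col1a2*, *Pdgfra* and *Pdgfrb* were lower in KO, and *Dcn*, *Col3a1* and *Lum* were higher. Of the higher ones, *Lum* was at or under the floor in every library, and *Col3a1* was above it in KO c only. Which cells gave the *Col1a1* reads was not tested. Over the 80 members with at least 10 counts, KO a held the highest value for 18 and the lowest for 21, WT b for 17 and 23, and KO b for 5 and 5, so that no library was at one extreme for most of the segment.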

How the data were processed

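Polyadenylated RNA was made into stranded libraries by the authors, who aligned single reads to mouse genome build GRCm38 (TopHat2 2.1.0 with Bowtie 1.1, per the submitters' processing notes) and counted uniquely mapped reads per gene by strand. The deposited values are whole-number counts per gene, neither normalized nor pooled. Genes with a near-identical copy, or exons shared with another gene on the same strand (6 members), have uncertain counts.

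The name of each column gives the genotype and numbers that match no sample title, so libraries served as unnumbered replicates of WT (3 mice) and KO (3 mice), and p-values measure the spread between these mice. Genes with a count in at least 1 library (21681) were tested for KO against WT by edgeR's quasi-likelihood test (version 4.0.16, TMM normalization, R 4.3.3) with Benjamini-Hochberg adjustment over all of them, at an adjusted p below 0.05. CPM values are scaled by TMM factors (0.981 to 1.03). Levels per kilobase use summed exon length from a GENCODE annotation of the same build. Intervals are 95% intervals from the fitted SE. The floor of 3 counts covers counting error only. The code was tested on simulated data. Alternatives were limma-voom (limma 3.58.1), DESeq2 1.42.0, library size only, 3 other filters on low counts, protein-coding genes only, other call thresholds, and each library left out in turn.

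The members and the gene lists were chosen with earlier results of these data known. Named genes were members past the threshold, *Cacna1g* and the *Hoxb* genes, the 10 nearest to *Itga3* on each side, the 12 highest per kilobase, a fixed list (*Dlx3*, *Dlx4*, *Sp6*, *Ngfr*, *Hlf*, *Phb*, *Lasp1*, *Nfe2l1*, *Igf2bp1* and *Abcc3*), and the 5 of smallest p in each direction without overlap. Other genes were named after their values were seen. Promoter sequences are RefSeq's. *Hoxb13* was not analysed here.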

Additional observations from a re-analysis of the deposited data

How the results depend on the processing

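No paired analysis was possible because the numbers in the column names match no sample title and tie no WT library to a KO library. The number of members past the threshold, 3 in edgeR (2 higher, 1 lower), was 1 higher and 0 lower, so 1 in all, by limma-voom, after filterByExpr and when every library had to reach 10 counts. It was 1 higher and 1 lower with protein-coding genes only, 2 higher and 2 lower by DESeq2, which added *Abcc3* (adjusted p = 0.0201), and 0 in either direction under the limits of the study's heat map (mean log2 CPM above 4 and absolute log2 fold change above 0.6 in addition), where all 3 were below the level limit. It did not change with library size only, without a filter, or at an adjusted p below 0.1. With each library left out in turn it was 0 to 6 (0 to 4 higher, 0 to 2 lower). It was 0 without WT c and without KO a by edgeR, where 12 and 15 members had an unadjusted p below 0.05, 1 without KO c, and 6 without WT a, which added *Abcc3* (0.0158), *Dlx3* (0.0434) and *Slc35b1* (0.0315). Over all genes, 146 were called in edgeR, 24 by limma-voom, 546 by DESeq2, 15 after filterByExpr, 12 with at least 10 counts, 25 with protein-coding genes only, 5 without WT c, 10 without KO a, 30 without KO c and 521 without WT a. The cause was not tested.

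*Cacna1g* passed under 11 of 13 alternatives (adjusted p 9.47e-12 to 0.204), *Rsad1* under 7 (2.38e-07 to 0.136) and *Scrn2* under 5 (0.000137 to 0.316). *Rsad1* had 0.0502 after filterByExpr and 0.0589 with at least 10 counts, *Scrn2* 0.0831, 0.0958 and, with protein-coding genes only, 0.0849, and 0.0610 without WT b.

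The median log2 fold change of members, 0.0150, was −0.0114 after filterByExpr, −0.0136 in the fit with at least 10 counts, −0.00675 over members with at least 10 counts, and −0.00363 to 0.0453 with each library left out in turn. Among 50 named members, 11 changed sign under an alternative, none of which passed the threshold. *Eme1* was 0.0807 by limma-voom. With each library left out, the log2 fold changes ranged from −0.40 to 0.23 for *Eme1*, −0.0889 to 0.0755 for *Dlx4*, −0.55 to 0.42 for *Hils1*, −0.0410 to 0.12 for *Hoxb2*, −0.000890 to 0.24 for *Hoxb3*, −0.10 to 0.0911 for *Hoxb6*, −0.17 to 0.41 for *Ngfr*, −0.20 to 0.0906 for *Pdk2*, −0.0315 to 0.18 for *Phb*, −1.01 to 0.34 for *Sgca* and −0.0475 to 0.0268 for *Ube2z*. At this depth, genes at or under the floor can show no difference.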
